A study of Mus musculus with 8 samples.

Results

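The genes described here are 44 components of the Wnt pathway, taken from a list that names Wnt ligands, their receptors, secreted and intracellular inhibitors, the β-catenin destruction complex and the nuclear effectors. Each gene was read from the probe sets that name exactly 1 gene, and where several did, from the one with the highest mean over all lines. In this way 43 of the 44 genes were measured, among 22180 genes in all: 12 ligands, 14 receptors, 9 inhibitors, 4 destruction complex genes and 4 effectors. No single-gene probe set was found here for Tcf7.

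The values come from Affymetrix arrays of 8 clonal C57BL/6 mouse tumour cell lines, 1 array per line. The 4 lines ICC9, ICC10 (female), ICC2.7 and ICC2.9 (male) came from intrahepatic cholangiocarcinoma (ICC), a tumour of bile duct appearance, which arose after focal electroporation of the liver. The 4 lines HCC1, HCC4 (male), HCC2.1 and HCC2.4 (female) came from hepatocellular carcinoma (HCC), a tumour of hepatocyte appearance, which arose after hydrodynamic injection into the tail vein. All 8 lines carry the same drivers, c-Myc and NrasG12V on the pCaMIN vector, were derived from transformed hepatocytes, and were grown untreated in DMEM with 10% FCS and 7.5% CO2. Delivery method and tumour type therefore cannot be told apart. The labels do not say which lines share an animal or a tumour, so the p-values measure the spread between lines, and labelled sex and origin of a pair of lines cannot be told apart either.

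Wnt proteins are secreted lipid-modified ligands that bind Frizzled receptors together with the co-receptors LRP5 and LRP6. Binding inactivates a complex of APC, AXIN and GSK3 that otherwise marks β-catenin for degradation, and β-catenin then enters the nucleus and acts with TCF and LEF factors. Other Wnts signal through Frizzleds without β-catenin. In the liver, Wnt signals maintain the gene programme of hepatocytes around the central vein, and mutations that activate β-catenin are frequent in human hepatocellular carcinoma.

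Levels are log2 values, and the number of arrays limits their precision. The array medians lay between 5.02 and 5.09. The 8 deposited columns span only 7 directions: a weighted sum of the lines, in which ICC9 has a weight of 0.782 and ICC10 one of -0.538, was constant to within rounding, so a gene has 7 and not 8 independent values. The Y-linked Uty was at 3.28 to 3.51 in the lines labelled female and 7.98 to 8.29 in those labelled male, as the labels state. Alb, the hepatocyte's main secreted protein, was at 4.12 to 4.64 in all 8 lines, below the median gene at 5.66, and 2 of 8 hepatocyte markers and 3 of 7 measured cholangiocyte markers lay above that median. No endothelial marker of 8 did so, and 1 of 8 macrophage and leukocyte markers did. Fewer cells of a kind and less RNA per cell cannot be told apart in such bulk RNA.

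No Wnt gene was called between the tumour types. Of the 43 genes, 0 passed an adjusted p of 0.05 in limma (two-sided, Benjamini-Hochberg over all 22180 genes), against 0.261% of all genes. At an unadjusted p under 0.05, 5 of 43 (11.6%) passed, 2 higher and 3 lower in ICC, against 14.1% of all genes. Lines of the types did not overlap for 3 of 43 genes, Wnt10b, Nkd1 and Wnt16, against 8.63% of all genes. The median difference of the 43 genes was -0.01 log2 units (all genes 0.00), and the median size of a difference was 0.15 log2 units (all genes 0.13). Among the genes, 21 differences were positive and 22 negative. The shares of Wnt genes that passed were thus at or below those of all genes at each of these thresholds. With 43 genes, such small counts are not set apart from the shares of all genes.

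**Figure D1:**
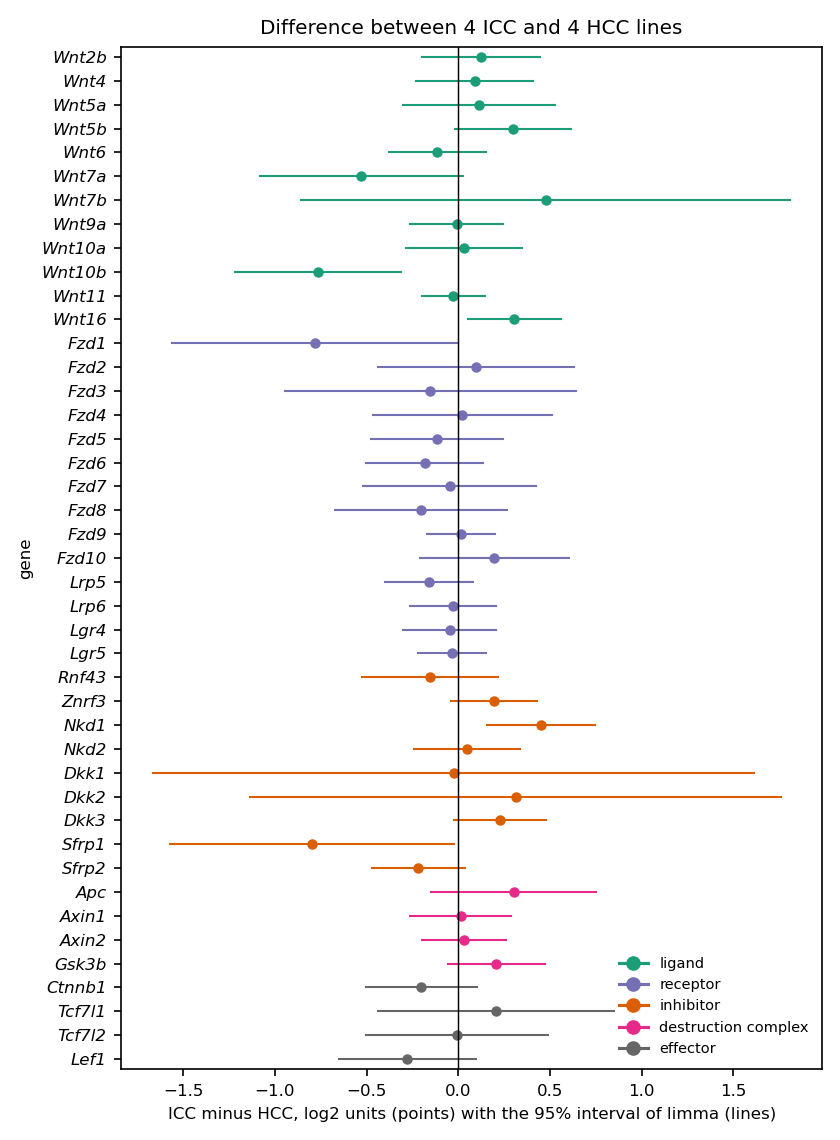
Difference between 4 ICC and 4 HCC lines for the 43 Wnt genes in log2 units (points, horizontal axis, ICC minus HCC) with the 95% interval of limma (lines), 1 gene per row. Differences run from -0.80 for Sfrp1 to 0.48 for Wnt7b, and 0 of 43 genes passed an adjusted p of 0.05.

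In Wnt genes, lines of one type but different sex stood at least as far apart, on average, as lines of different type. Lines of the same type and sex differed by a mean of 0.240 log2 units per gene (4 pairs of lines), lines of the same type and different sex by 0.418 (8 pairs), and lines of different type by 0.378 (16 pairs). Over all genes the same distances were 0.195, 0.296 and 0.300. The closest lines in these genes were HCC2.1 and HCC2.4, at 0.145, and ICC9 and ICC10, at 0.192, while HCC1 and HCC4 stood 0.406 apart. These distances were not tested.

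**Figure D2:**
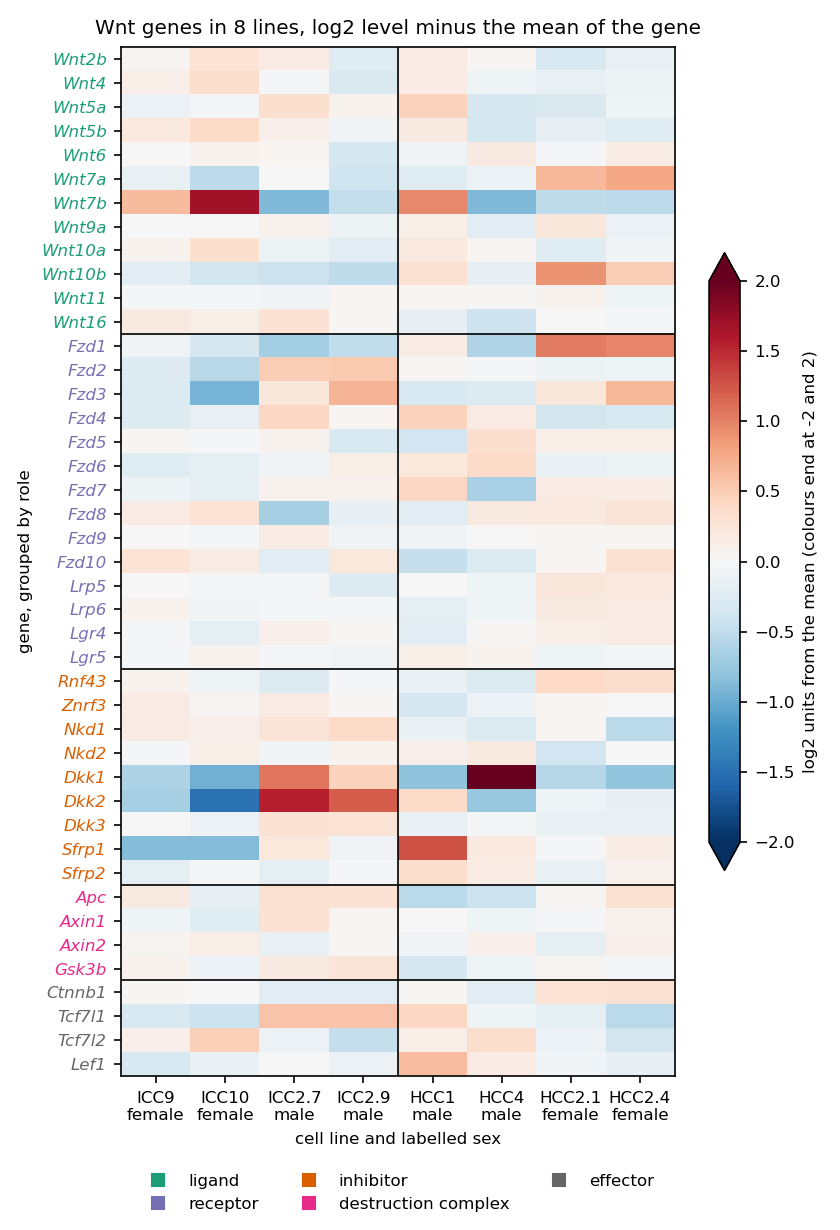
Level of each of the 43 Wnt genes (rows, grouped by role) in each of the 8 lines (columns, with the labelled sex), as log2 units from the mean of that gene over the lines. Dkk2, Dkk1 and Wnt7b carry the strongest colours, and within each they mark single lines or pairs of lines rather than a whole tumour type.

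Split by sums of squares, the median Wnt gene had 7.1% of its variation between ICC and HCC. A further 50.3% lay between same-type pairs (the female against the male lines), and 24.2% between both lines of a pair. The same medians over all genes were 14.2%, 39.6% and 32.5%. The share between pairs was the largest of the 3 for 28 of 43 Wnt genes (65.1%, all genes 45.4%). The shares rest on unequal degrees of freedom, fewest for type and most for lines of a pair. They can therefore be set beside those of all genes but not ranked against each other as they stand. By mean level, 28 of the 43 Wnt genes lay above the median gene and 15 below. Neither these shares nor the shares of genes passing a threshold were matched to all genes by level. The pair share reached 92.9% for Fzd2, while Wnt10b and Nkd1 had 65.3% and 64.8% between the tumour types.

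**Figure D3:**
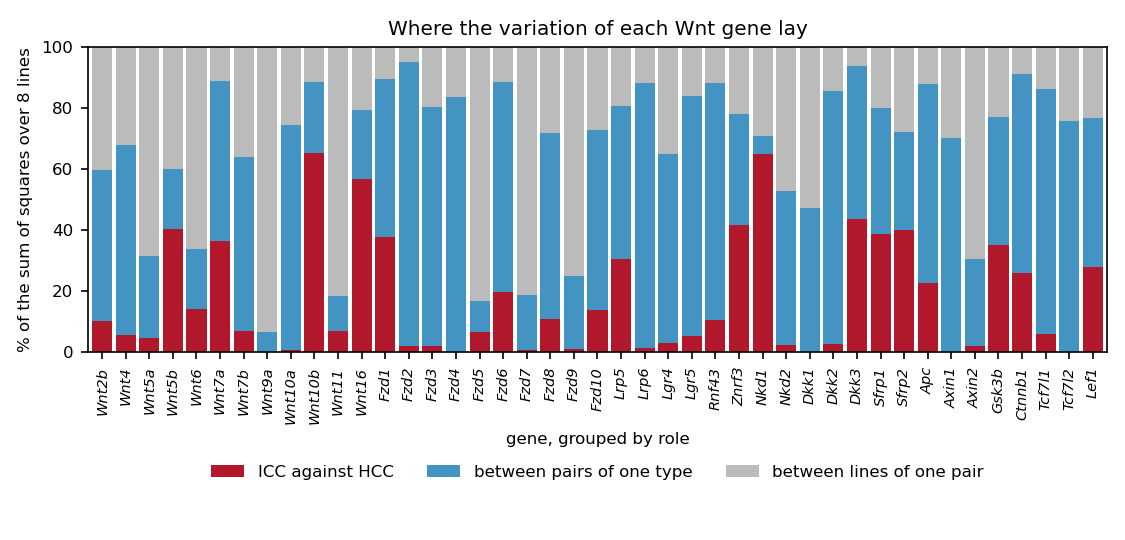
Share of the sum of squares over 8 lines (vertical axis, %) that lay between ICC and HCC, between the female and male pair inside a type, and between the lines of one pair, for each of the 43 Wnt genes (bars, grouped by role). The share between pairs was the largest part for 28 of the 43 genes.

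Among the ligands, Wnt10b, a ligand of the β-catenin branch known for holding back fat cell differentiation, was the gene nearest to a call between the types. Its level was 6.64 in ICC9, 6.50 in ICC10, 6.44 in ICC2.7 and 6.36 in ICC2.9. In the HCC lines it was 7.18 in HCC1, 6.70 in HCC4, 7.76 in HCC2.1 and 7.36 in HCC2.4. All 4 HCC lines lay above all 4 ICC lines, with HCC4 only just so. The ICC-minus-HCC difference was -0.77 log2 units (SE 0.199, 95% interval -1.22 to -0.31, n = 4 and 4), with an adjusted p of 0.153 in limma. Leaving out HCC4, the HCC line nearest to the ICC lines, gave -0.95 and an adjusted p of 0.0532, and over all alternatives the adjusted p ran from 0.053 to 0.472.

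Wnt7b, a ligand of both branches with roles in lung and kidney development, spread most among the ligands. It was at 6.90 in ICC9, 7.95 in ICC10, 5.38 in ICC2.7 and 5.78 in ICC2.9. The HCC lines were at 7.22 (HCC1), 5.38 (HCC4), 5.76 (HCC2.1) and 5.74 (HCC2.4). ICC9, ICC10 and HCC1 stood above the other 5 lines, which were all between 5.38 and 5.78. The difference between types was 0.48 log2 units (SE 0.588, adjusted p = 0.761 in limma), and without ICC10 it was -0.01, so its sign rested on that line.

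Wnt7a, its near relative, was highest in other lines. It was at 6.20 in HCC2.1 and 6.32 in HCC2.4, against 5.31 in HCC1 and 5.44 in HCC4. The ICC lines lay at 5.41, 5.03, 5.56 and 5.15 for ICC9, ICC10, ICC2.7 and ICC2.9. Only HCC2.1 and HCC2.4 stood apart, and the difference between that pair and the other HCC lines was 0.89 log2 units (SE 0.179, n = 2 and 2), with an adjusted p of 0.0513 in limma.

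Wnt16, at 3.22 to 3.62 in HCC and 3.65 to 3.92 in ICC, did not overlap between types, but its level stood below the median gene in every line (difference 0.31, SE 0.112, adjusted p = 0.274 in limma). Wnt5a, which signals mainly without β-catenin, was at 6.43, 6.51, 6.87 and 6.62 in ICC9, ICC10, ICC2.7 and ICC2.9, and at 7.02, 6.23, 6.26 and 6.47 in HCC1, HCC4, HCC2.1 and HCC2.4. Its types overlapped. The remaining 7 ligands, Wnt2b, Wnt4, Wnt5b, Wnt6, Wnt9a, Wnt10a and Wnt11, ranged between 4.54 and 6.26 over all lines and none had an unadjusted p under 0.05 between types. Of the 12 ligands, 4 had a mean above the median gene.

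The receptors include the Frizzleds, which bind Wnts directly, and LRP5 and LRP6. Fzd1 varied most between lines among them together with Fzd3. It was at 7.73, 7.49, 7.12 and 7.31 in ICC9, ICC10, ICC2.7 and ICC2.9. The HCC values were 7.96 in HCC1, 7.20 in HCC4, 8.84 in HCC2.1 and 8.78 in HCC2.4. HCC2.1 and HCC2.4 were the highest lines, while HCC4 lay among the ICC lines. The difference between types was -0.78 log2 units (SE 0.343, adjusted p = 0.352 in limma).

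Fzd2 split the ICC lines. It was at 6.68 in ICC9 and 6.38 in ICC10, against 7.43 in ICC2.7 and 7.47 in ICC2.9. In HCC it was at 6.96, 6.92, 6.84 and 6.85 in HCC1, HCC4, HCC2.1 and HCC2.4. The HCC lines lay together between the ICC pairs, and the types' means differed by less than the spread between lines.

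Fzd3, known for axon guidance and planar cell polarity, was at 5.88, 5.23, 6.38 and 6.84 in ICC9, ICC10, ICC2.7 and ICC2.9, and at 5.85, 5.88, 6.38 and 6.83 in HCC1, HCC4, HCC2.1 and HCC2.4. The lines titled with a leading 2 were above the others in both types. Among the other Frizzleds, Fzd4 ranged from 6.54 to 7.38, Fzd5 from 6.82 to 7.54, Fzd6 from 8.86 to 9.48, Fzd7 from 7.21 to 8.27 and Fzd8 from 6.26 to 7.20. Fzd9 (5.56 to 5.78) and Fzd10 (3.35 to 4.11) had the dimmer probe sets. The co-receptors Lrp5 (9.40 to 9.89) and Lrp6 (9.77 to 10.14) were at similar levels in every line. The R-spondin receptor Lgr4 was also even, at 7.88 to 8.23, while Lgr5, a marker of stem cells in several epithelia, stayed at 4.48 to 4.69, below the median gene, in all lines. A second probe set of Lrp6 read 6.29 to 6.67, and one of Lgr5 4.05 to 4.39, so the probe sets of Lrp6 disagree in level. In the receptor group, 11 of 14 means lay above the median gene. An unadjusted p under 0.05 between types was found for 1 of 14 (7.14%), against 14.1% of all genes.

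Of the roles, the inhibitors stood furthest apart between lines. Their mean distance was 0.542 log2 units between lines of different type and 0.578 between lines of one type and different sex. Between lines of the same type and sex it was 0.330, also the largest of the roles (all genes 0.195). Ranges over all lines were widest for Dkk1 (3.18), Dkk2 (3.05) and Sfrp1 (2.15), and Nkd1 came next at 0.92. Dkk2, a Dickkopf protein that binds LRP co-receptors, was at 6.27 in ICC9, 5.44 in ICC10, 8.49 in ICC2.7 and 8.14 in ICC2.9. The HCC lines were at 7.31 (HCC1), 6.17 (HCC4), 6.84 (HCC2.1) and 6.77 (HCC2.4). The ICC lines thus lay both above and below the HCC lines. Between types the difference was 0.31 (SE 0.638, 95% interval -1.13 to 1.76, adjusted p = 0.87 in limma), and without ICC2.7 or ICC2.9 it was -0.16 or -0.04.

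Dkk1, a Dickkopf inhibitor that is itself a target of β-catenin, was at 5.13, 4.78, 6.81 and 6.21 in ICC9, ICC10, ICC2.7 and ICC2.9. HCC1, HCC2.1 and HCC2.4 lay at 4.94, 5.17 and 4.96, and HCC4 at 7.96. The types overlapped, with HCC4 above every other line. The difference between types was -0.03 (95% interval -1.66 to 1.61).

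Sfrp1, which binds Wnts outside the cell, was lowest in ICC9 (5.49) and ICC10 (5.50), followed by ICC2.9 (6.29) and ICC2.7 (6.58). The HCC lines were at 7.64 (HCC1), 6.55 (HCC4), 6.34 (HCC2.1) and 6.51 (HCC2.4). ICC2.7 lay above 3 of the HCC lines. The difference between types was -0.80 (SE 0.341, adjusted p = 0.342 in limma) and was -0.50 without HCC1.

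Nkd1, an intracellular antagonist that binds Dishevelled, was at 4.98, 4.92, 5.07 and 5.20 in ICC9, ICC10, ICC2.7 and ICC2.9, and at 4.69, 4.55, 4.85 and 4.28 in HCC1, HCC4, HCC2.1 and HCC2.4. The types did not overlap, and every level lay below the median gene. The difference was 0.45 log2 units (SE 0.130, adjusted p = 0.188 in limma). Rnf43 and Znrf3, ubiquitin ligases that remove Frizzleds, lay at 4.94 to 5.62 and 7.36 to 7.86, Dkk3 at 6.05 to 6.49, and Nkd2 and Sfrp2 at 5.17 to 5.73 and 4.48 to 5.01 (a second Sfrp2 probe set at 4.28 to 4.85).

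Promoters are shown for Dkk2, Fzd1 and Tcf7l1, which were called between pairs of lines of one type, and for Dkk1, whose window held the motif searched. Each is given as the 250 bases before the start site from RefSeq (GRCm38.p6), 5′ to 3′ on the gene's strand, with capitals marking a TCF/LEF-like motif. The windows are chr3:132085042-132085291 for Dkk2 (plus strand), chr19:30549497-30549746 for Dkk1 (minus strand), chr5:4758217-4758466 for Fzd1 (minus strand) and chr6:72789046-72789295 for Tcf7l1 (minus strand).
Dkk2: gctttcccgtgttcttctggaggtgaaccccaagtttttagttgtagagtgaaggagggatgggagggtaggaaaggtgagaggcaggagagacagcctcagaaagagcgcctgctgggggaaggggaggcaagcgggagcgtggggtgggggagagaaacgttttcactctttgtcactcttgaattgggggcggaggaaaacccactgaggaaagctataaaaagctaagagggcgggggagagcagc
Dkk1: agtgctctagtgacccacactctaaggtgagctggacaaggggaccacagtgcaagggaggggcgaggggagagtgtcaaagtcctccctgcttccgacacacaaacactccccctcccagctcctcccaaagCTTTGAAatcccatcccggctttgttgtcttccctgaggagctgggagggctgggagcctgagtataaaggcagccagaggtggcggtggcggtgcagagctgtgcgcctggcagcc
Fzd1: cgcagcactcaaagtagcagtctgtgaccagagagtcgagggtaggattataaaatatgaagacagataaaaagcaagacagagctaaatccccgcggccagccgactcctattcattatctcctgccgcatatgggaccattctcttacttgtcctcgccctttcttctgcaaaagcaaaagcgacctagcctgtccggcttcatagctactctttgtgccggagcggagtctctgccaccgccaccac
Tcf7l1: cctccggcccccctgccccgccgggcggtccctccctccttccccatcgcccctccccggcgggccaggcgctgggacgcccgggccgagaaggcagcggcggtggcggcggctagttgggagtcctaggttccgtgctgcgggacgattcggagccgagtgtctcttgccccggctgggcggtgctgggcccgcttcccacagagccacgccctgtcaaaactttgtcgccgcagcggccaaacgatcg

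The motif searched was CTTTGAA or CTTTGAT on both strands. It occurred in the Dkk1 window, 117 bases before the start, and in none of the other windows printed. That contrast follows from the choice of windows, as Dkk1 was printed for its match. Windows were held for 29 of the 44 Wnt genes, 39 windows in all. Of these, 3 (7.7%) held a match (in Dkk1, Wnt5b and Wnt11), against 7.48% of all 32851 windows in the table. Each match is a description of the letters and not a site.

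No gene of the destruction complex and no effector (4 genes each) had an unadjusted p under 0.05 between types in limma, against 14.1% of all genes. With so few genes, a count of 0 is not set apart from that share. Axin2, the negative feedback gene most used as a readout of β-catenin activity, was at 6.21, 6.29, 6.01 and 6.18 in ICC9, ICC10, ICC2.7 and ICC2.9, and at 6.10, 6.25, 5.96 and 6.25 in HCC1, HCC4, HCC2.1 and HCC2.4. Its lines overlapped fully between types, and the difference was 0.03 log2 units with a 95% interval of -0.20 to 0.26. A second probe set for Axin2 lay at 5.35 to 6.07 and was highest in ICC9 and ICC10. Apc was at 8.73, 8.39, 8.85 and 8.83 in the ICC lines in the same order and at 8.01, 8.12, 8.60 and 8.86 in HCC1, HCC4, HCC2.1 and HCC2.4. HCC1 and HCC4 were the lowest lines. Axin1, a scaffold of the complex, lay at 7.91 to 8.46 and the kinase gene Gsk3b at 10.38 to 10.97. The ICC-minus-HCC difference was positive for all 4 genes, with a median of 0.12 log2 units, while the median size of a difference over all genes was 0.13. The sign was not shared by both sexes. In female lines 3 of the 4 differences were negative (median -0.095), and in male lines 3 were positive (median 0.33).

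Ctnnb1, which encodes β-catenin, was at 11.78, 11.75, 11.52 and 11.54 in ICC9, ICC10, ICC2.7 and ICC2.9 and at 11.77, 11.54, 12.03 and 12.06 in HCC1, HCC4, HCC2.1 and HCC2.4. HCC2.1 and HCC2.4 were highest, and the types overlapped (difference -0.20, 95% interval -0.51 to 0.10). Tcf7l1, a TCF factor that mostly represses targets, was at 6.94, 6.82, 7.82 and 7.81 in the ICC lines and at 7.65, 7.15, 7.06 and 6.70 in the HCC lines, in the same orders. Tcf7l2 was at 7.94, 8.31, 7.71 and 7.35 and at 7.97, 8.18, 7.72 and 7.47. Lef1 was at 6.02 to 6.31 in ICC and 6.15 to 6.93 in HCC, with HCC1 highest.

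**Figure D4:**
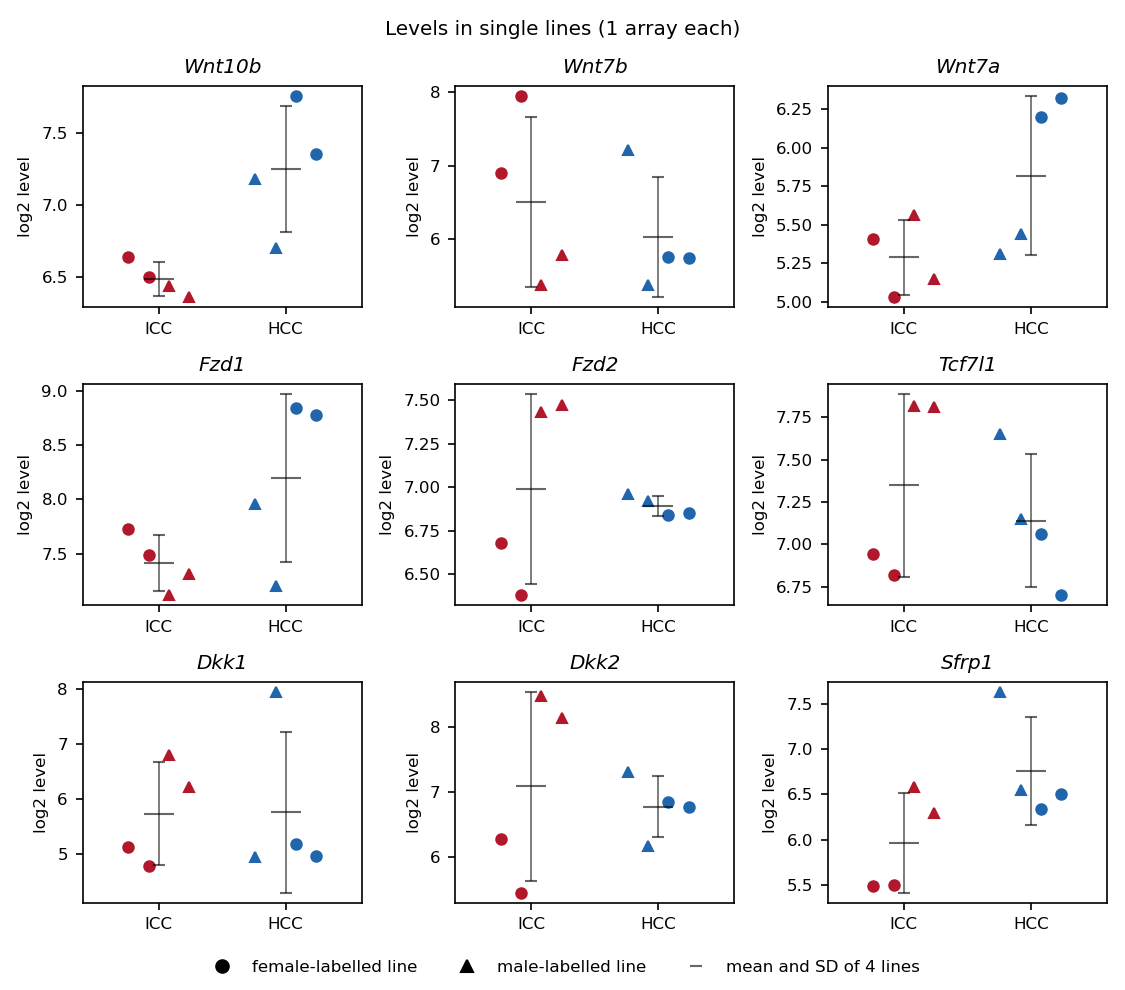
Levels of 9 Wnt genes in log2 units (vertical axis, scaled separately per gene) in each line (points, circles for female-labelled and triangles for male-labelled lines), with the mean and SD of 4 lines (bars). Wnt10b separates HCC from ICC, Fzd1 and Wnt7a are high in HCC2.1 and HCC2.4, and Fzd2, Tcf7l1 and Dkk2 split the ICC lines.

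Within ICC, comparing ICC9 and ICC10 with ICC2.7 and ICC2.9, 3 of 43 Wnt genes passed an adjusted p of 0.05, against 3.99% of all genes, and 13 of 43 (30.2%) had an unadjusted p under 0.05, against 21.9%. The 3 called genes were all lower in ICC9 and ICC10. Dkk2 differed by -2.46 log2 units (SE 0.391, 5.50-fold, adjusted p = 0.0215 in limma), Fzd2 by -0.92 (SE 0.122, 1.89-fold, adjusted p = 0.0131) and Tcf7l1 by -0.94 (SE 0.188, adjusted p = 0.0417), with n = 2 and 2. Leaving out 1 line kept the size of these differences: Dkk2 ranged from -2.88 to -2.05, Fzd2 from -1.07 to -0.77 and Tcf7l1 from -0.995 to -0.875. The calls changed more, with 0 left without ICC10, ICC2.7 or ICC2.9, 2 without ICC9, 1 without HCC2.1 or HCC2.4, and 6 without HCC1 or HCC4. Without an ICC line 1 side of the comparison is a single line, which is assumed to vary like the other groups, and the HCC lines enter only through the shared spread. The adjusted p of Fzd2 was 0.114, 0.0703 and 0.0682 without ICC10, ICC2.7 and ICC2.9, and that of Dkk2 was 0.176, 0.113 and 0.0822. For Tcf7l1 it was 0.122 to 0.347 when 1 ICC line was left out, and 0.0745 with the unspanned direction as a term in the fit, where Fzd3 was called in its place. Markers of several cell types also differed between these pairs. Of 10 mesenchymal and stellate cell markers, 7 were lower and 3 higher in ICC9 and ICC10, and 2 were called: Acta2 (-0.71, adjusted p = 0.028 in limma) and Col3a1 (-0.61, adjusted p = 0.0458). Pdgfrb (-2.28, adjusted p = 0.0653) and Col1a1 (-2.27, adjusted p = 0.0519) differed more but did not pass, and Vim was even (-0.04). The mean of the 10 markers was 6.26 to 7.02 over the ICC lines and 6.10 to 6.48 over the HCC lines, with Pdgfra, Des, Lrat, Dcn and Lum below the median gene. In the other direction, the cholangiocyte keratin Krt19 (2.48, adjusted p = 0.0128), the macrophage marker Cd68 (1.88, adjusted p = 0.0313) and the hepatocyte enzyme Fah (1.09, adjusted p = 0.0413) were higher in ICC9 and ICC10, each the only called gene of its list. The lists themselves were mixed. Higher in ICC9 and ICC10 were 4 of 7 cholangiocyte, 6 of 8 macrophage and leukocyte and 5 of 8 hepatocyte markers, and the others were lower. The part of these markers in the Wnt gene results was not tested.

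Within HCC, comparing HCC2.1 and HCC2.4 with HCC1 and HCC4, 1 of 43 genes passed the adjusted p, against 2.66% of all genes, and 14 of 43 (32.6%) had an unadjusted p under 0.05, against 20.0%. The called gene was Fzd1, higher by 1.23 log2 units (SE 0.234, 2.35-fold, adjusted p = 0.0442 in limma). All 4 effectors had an unadjusted p under 0.05, Ctnnb1 higher and Tcf7l1, Tcf7l2 and Lef1 lower in HCC2.1 and HCC2.4, none passing the adjustment. This role was singled out after its values were seen. The same count of effectors was 2 of 4 within ICC, 1 of 4 in the interaction and 0 of 4 between types. Without HCC2.1 or HCC2.4 the Fzd1 difference was 1.20 and 1.26, with adjusted p of 0.193 and 0.194. There 1 side is a single line, assumed to vary like the other groups. It was 1.61 without HCC1 and 0.85 without HCC4, still called in both. Leaving out any ICC line did not touch the difference and gave adjusted p of 0.0786 to 0.0794 from the shared spread, and the unspanned direction as a term in the fit gave 1.29 and 0.0684. The count of called Wnt genes was 0 without HCC2.1, HCC2.4 or any ICC line, 3 without HCC1 and 2 without HCC4. Of the markers, 3 were called in this contrast, all higher in HCC2.1 and HCC2.4: the hepatocyte factor Hnf4a (1.65, adjusted p = 0.013 in limma), the epithelial adhesion gene Cdh1 (2.46, adjusted p = 0.0384) and Krt19 (1.90, adjusted p = 0.0356). The rest of their lists did not follow as a whole, with 4 of 8 hepatocyte, 3 of 4 epithelial and 5 of 7 cholangiocyte markers higher, Alb even at 0.01 and Ocln at -0.57. Of the 10 mesenchymal and stellate cell markers, 8 were lower and 2 higher in HCC2.1 and HCC2.4, with 0 called. Most of that list was thus lower in the female pair of both types. The part of these markers in the Fzd1 result was not tested.

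**Figure D5:**
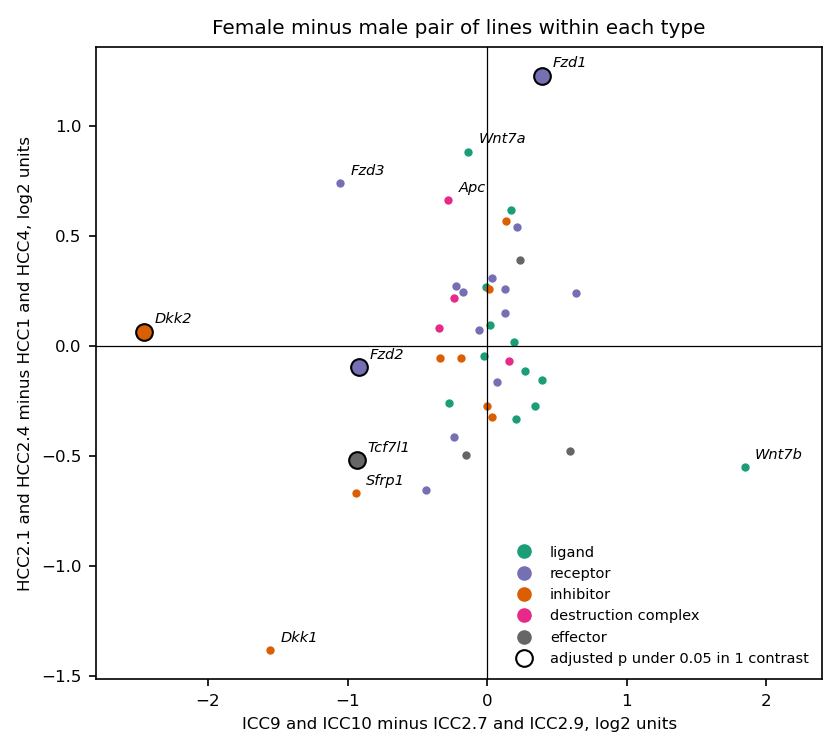
Difference within ICC (horizontal axis, ICC9 and ICC10 minus ICC2.7 and ICC2.9) against difference within HCC (vertical axis, HCC2.1 and HCC2.4 minus HCC1 and HCC4) for the 43 Wnt genes in log2 units, coloured by role and ringed where the adjusted p was under 0.05 in 1 of them. Dkk2 lies at -2.46 within ICC, and Fzd1 at 1.23 within HCC.

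Whether the difference between pairs depended on the tumour type was tested by the interaction. It was called for 0 of 43 Wnt genes and for 0.0% of all genes, while 15 of 43 (34.9%) had an unadjusted p under 0.05, against 20.1%. Fzd3 had the smallest p (difference of differences -1.80, SE 0.362, adjusted p = 0.113 in limma), and the unspanned direction as a term in the fit gave it 0.0492. This contrast is the same as lines titled with a leading 2 against the others, so it cannot be told apart from that naming. Compared within one sex, ICC and HCC differed for 0 of 43 genes in female lines (0.978% of all genes) and for 1 of 43, Apc, in male lines (6.05% of all genes). Apc was higher in male ICC lines by 0.78 log2 units (SE 0.148, adjusted p = 0.031 in limma), with n = 2 and 2.

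Of 117 further pathway genes from lists of ligands, secretion factors, antagonists, receptors, relay proteins, cofactors and reported target genes, 109 were measured. These lists were chosen with earlier results of these data known. Their shares beside those of all genes therefore only describe these data and test nothing about the lists. Between ICC and HCC, 1 was called higher and 1 lower in ICC, which is 1.83% against 0.261% of all genes, and 19 (17.4%) had an unadjusted p under 0.05, against 14.1%. Nrcam, a cell adhesion gene, differed by 1.30 log2 units (adjusted p = 0.0216 in limma), and Tbx3, a β-catenin target in liver, by -1.30 (adjusted p = 0.0252). Porcn, the acyltransferase that lipid-modifies Wnts and lies on chromosome X, was higher in the female pair of both types. It was at 8.30, 8.29, 7.38 and 7.47 in ICC9, ICC10, ICC2.7 and ICC2.9 and 7.93, 7.79, 8.80 and 8.81 in HCC1, HCC4, HCC2.1 and HCC2.4. Its differences were 0.87 within ICC (adjusted p = 0.00941) and 0.95 within HCC (adjusted p = 0.00885). Within ICC, 6 of 109 (5.5%) were called, against 3.99% of all genes: Porcn and 5 genes that were lower in ICC9 and ICC10. The latter were the secreted antagonists Sostdc1 (-1.29, adjusted p = 0.00861) and Frzb (-0.91, 0.0313), the X-linked glypican Gpc4 (-2.55, 0.0217), the receptor gene Lrp4 (-0.69, 0.046) and the reported target Ccn4 (-1.01, 0.029). Within HCC, 6 of 109 (5.5%) were called, Porcn among them, against 2.66% of all genes. Lgr6 (1.09, adjusted p = 0.0236), Tle4 (0.75, 0.042) and Jag1 (1.25, 0.0477) were higher in HCC2.1 and HCC2.4, and Ccn4 (-1.55, 0.0103) and Msx2 (-0.98, 0.026) were lower. Ccn4 was thus lower in the female pair of both types, at 6.34 and 6.50 against 7.59 and 7.26 in ICC, and at 5.74 and 5.67 against 7.03 and 7.48 in HCC. In the lists of other ligands and of relay proteins, with no called gene in these 4 contrasts, the smallest p belonged to the interaction of Wnt1 (0.57, adjusted p = 0.175) and of Ppp2ca (1.04, adjusted p = 0.12).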

How the data were processed

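The labels state that 100 ng of RNA per line was prepared with the WT PLUS kit for Affymetrix arrays. The deposited values are log2 levels with 2 decimals, made by RMA in oligo per the submitters' processing notes. Their versions are not stated in the sources used. Of 39993 probe sets, 23521 name exactly 1 gene, 1814 several and 14658 none, and the brightest single-gene probe set stood for a gene. Members and lists were chosen with earlier results of these data known. Tests used limma 3.58.1 (R 4.3.3), with moderated two-sided p-values and Benjamini-Hochberg adjustment over all 22180 genes. ICC was set against HCC without covariates (6 residual degrees of freedom). Female minus male lines within each type, ICC minus HCC within each sex, and the interaction came from a fit of 4 groups (4 residual degrees of freedom). No filter on dim probe sets was used, and signal over background was not assessed. Tables and plots used Python 3.11.15, pandas 2.3.3, numpy 2.4.6 and matplotlib 3.10.9.

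Tests are printed for members with an unadjusted p under 0.05 between types, the 3 largest differences in each direction, and members called between female and male lines of a type or in the interaction. Members outside this rule whose tests are given (Wnt7a, Fzd3, Axin2, Ctnnb1, Tcf7l2, Lef1, Dkk1 and Apc) were chosen after their values were seen. Of other pathway genes, those called are printed, and the smallest p of a list with none. On simulated independent lines with 200 of 22180 genes changed, the type fit recovered 84.8% of changes of 1 log2 unit with 3.56% false calls. The contrast of 2 against 2 HCC lines recovered 51.4% with 4.95% false calls. Both simulations took the spread of each gene from the type fit. That spread includes differences between pairs of lines, which the fit of 4 groups leaves out, so 51.4% does not measure recovery at the spread of that fit. Alternatives were other fits, normalizations, filters and left-out lines.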

Additional observations from a re-analysis of the deposited data

Results flagged for a closer look

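In 7 of 86 groups of 4 lines, 1 line stood far from the other 3 by Dixon's test. That test marks about 1 group in 20 by chance where lines are independent, which the labels do not settle. The count was not made over all genes, so 7 of 86 cannot be read as an excess. Dkk1 was at 7.96 in HCC4 and 4.94 to 5.17 in the other HCC lines. Sfrp1 was at 7.64 in HCC1 against 6.34 to 6.55, Wnt4 at 5.58 in HCC1 against 5.28 to 5.33, and Fzd8 at 6.71 in HCC1 against 7.11 to 7.18. Dkk3 was at 6.17 in HCC4 against 6.05 to 6.06. Among ICC lines, ICC2.9 was lowest for Wnt6 (4.54 against 4.90 to 4.95) and for Lrp5 (9.40 against 9.63 to 9.67).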

How the results depend on the processing

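Between ICC and HCC, 0 of 43 genes were called under each alternative except male lines only, where 1 was. Within ICC the 3 calls became 4 among genes above the median level (Fzd3 added), stayed 3 with the unspanned direction as a term in the fit (Fzd3 in place of Tcf7l1), and became 0 to 6 when single lines were left out. Within HCC the 1 call became 4 with a trended and robust fit, 3 among genes above the median level, 2 with quantile normalization, 2 with median centring, 0 with the unspanned direction as a term in the fit and 0 to 3 without single lines. In the interaction, 0 calls became 1 with the unspanned direction as a term in the fit. The sign of the Dkk2 difference between types turned in female lines only (-0.95), was 1.58 in male lines only (adjusted p = 0.0602 in limma) and ranged from -0.16 to 0.86 without single lines; that of Wnt7b turned in male lines only (-0.72), was 1.68 in female lines only (adjusted p = 0.21) and ranged from -0.005 to 0.88. Of the values of single genes under an alternative, 5 turned, 153 kept direction and side of the threshold and 22 lost the call. The differences between types were not called in the main fit and so had no call to lose. All 22 losses fell on the calls within types, each under 14 alternatives. Within ICC they were 5 for Dkk2, 3 for Fzd2 and 7 for Tcf7l1, and within HCC 7 for Fzd1. Leaving out a line also lowers the degrees of freedom; other causes were not tested. Array weights did not converge and gave no usable value. No paired analysis was possible because the replicate numbers follow accession order. With 2 lines per type and sex, changes of 1 log2 unit were often missed in the simulation, which used the spread of the type fit.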
